A study of Mus musculus with 4 samples.

Results

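The regions described here are Egr2 (Krox-20) peaks that were listed in natural killer T (NKT) cells of the mouse only and that carried a long strand shift. Peaks come from ChIP-seq, the sequencing of DNA recovered with an antibody from fixed chromatin. A region belonged to this set when it overlapped no region of the list from TCR-stimulated thymocytes by at least 1 bp and when the strand shift of its peak was 60 bp or more. The set held 220 regions, 11.02% of the 1996 regions of the NKT list and 13.4% of its 1642 NKT-only regions. Having no overlap was the common case, since NKT-only regions were 82.3% of the list. The overlap and the shift chose the set, and both are given as a description only.

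The NKT library came from Va14tg mice, whose cells were enriched with CD1d tetramers loaded with aGC, with about 10 mice (an average) pooled for each experiment. For the second Egr2 library, 3 to 5 mice received 500 µg of the anti-TCRb antibody H57, and their thymocytes were taken 24 hours afterwards. The labels give the strain Va14tg for this library too, as well as for an input DNA and an IgG library. Both Egr2 libraries started from 20000000 cells and used the same lot of antibody against Egr2. The Va14 transgene supplies an invariant TCR alpha chain, so that NKT cells are more frequent in such mice than in animals without it. Each condition had 1 library, no difference between them has a replicate check, and no input or IgG file was used here beyond the control values inside the lists.

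Egr2 is a zinc-finger transcription factor of the early growth response family, which recognises a GC-rich DNA element. It is induced when the T cell antigen receptor is engaged. NKT cells are selected in the thymus by CD1d on other thymocytes, receive a strong receptor signal in that step and need Egr2 to mature. In ChIP-seq, tags on the forward strand pile up on the left of a bound site and tags on the reverse strand on its right. The strand shift is the offset between both piles as the peak caller gives it, in bp. How it is scaled to the full distance between the piles is not given in the sources used here. Shifts in the NKT list ran from 26 to 200 bp, and 19 peaks sat at 200, the highest value listed. The median shift was 42 bp over all NKT-only regions, 70 bp over the NKT regions shared with injected thymocytes and 86 bp over the injected-thymocyte list. The threshold cut through a dense range of shifts. In all, 37 of the 220 regions had a shift of 60 to 64 bp, 8 of these at exactly 60, while 82 NKT-only regions had a shift of 55 to 59 bp and stayed outside. The tallest just inside was chr6:127105616-127105980 with a shift of 60 bp and a ChIP density of 21.7, and the tallest just outside was chr1:183159245-183159447 with 59 bp and 18.02.

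The ChIP density is the authors' tag density at the summit, and the control density is the same value in the control library. Region numbers in the list follow falling density and are used here as names. The numbers run to 2885 while 1996 regions were analysed, and the lowest number listed is 44, so that taller regions may lie outside this description. The same holds for the injected-thymocyte list, whose numbers run to 4975 over 4216 regions analysed. A position called NKT-only is therefore one with no overlapping region among those analysed.

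The 10 tallest of the 220 regions fell into those with many ChIP tags over few control tags and those with a high control. For each, the tag ratio is the number of ChIP tags over control tags times the factor of the list, 1.14, with an exact 95% interval that covers counting error only. The tag enrichment listed by the authors can be lower than this ratio. It was 16.6 in region 103, 10.7 in region 150, 10.4 in region 173 and 9.07 in region 198. In the rest of the 10 tallest it equalled the ratio. Below the ratios given further on were also its values of 8.90 in region 323, 7.77 in region 656, 6.04 in region 829 and 3.45 in region 899. The region with the strongest support from its tags was region 103 at chr9:48643773-48644749. Its 187 ChIP tags faced 9 control tags, a ratio of 23.6 (12.2 to 52.4), and its density was 28.1 where the control density was 0.280. Its peak had a shift of 104 bp, while the shift computed by the authors for the whole region, 977 bp wide, was 200 bp. No other of the 220 regions had a higher lower bound of this ratio. The nearest injected-thymocyte region lay 416 kb away.

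Region 97 at chr16:8306557-8306890 was the next tallest after region 54, which is described with the control signal. It had a density of 29.4, 54 ChIP tags, 6 control tags and a ratio of 10.2 (4.40 to 29.1). Region 124 at chr6:87452988-87453312 had 43 ChIP tags and 6 control tags, a ratio of 8.14 (3.45 to 23.4). Region 150 at chr12:40949660-40949990 had 41 ChIP tags and 2 control tags, a ratio of 23.3 (6.05 to 198.7). The shifts of these 3 regions were 69, 72 and 75 bp, close together and near the shift of the shared NKT regions. Their strand correlations, a value the authors give for each peak and read here as the match of the forward and reverse piles, were 0.900, 0.837 and 0.912.

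Regions 170 and 172 lay far apart on chromosome 10, at chr10:119634140-119634487 and chr10:12525634-12526028. Each held 49 ChIP tags, against 8 and 6 control tags, with ratios of 6.96 (3.27 to 17.01) and 9.27 (3.97 to 26.5). Region 173 at chr6:127105616-127105980, the one at the threshold of the shift, held 44 ChIP tags and 1 control tag, a ratio of 49.97 (8.51 to 2018). Region 198 at chr9:40926083-40926502 held 44 ChIP tags and 4 control tags, a ratio of 12.5 (4.55 to 47.9). The intervals of these 8 regions overlap each other, and differences between their ratios were not tested. Each lower bound is above 3. Region 161 at chr7:145047956-145048093 differed: its density of 22.3 rested on 22 ChIP tags in 138 bp, over 7 control tags and a control density of 4.53. Its ratio was 3.57 (1.47 to 9.89), its shift was 152 bp and its strand correlation was -0.060.

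**Figure D1:**
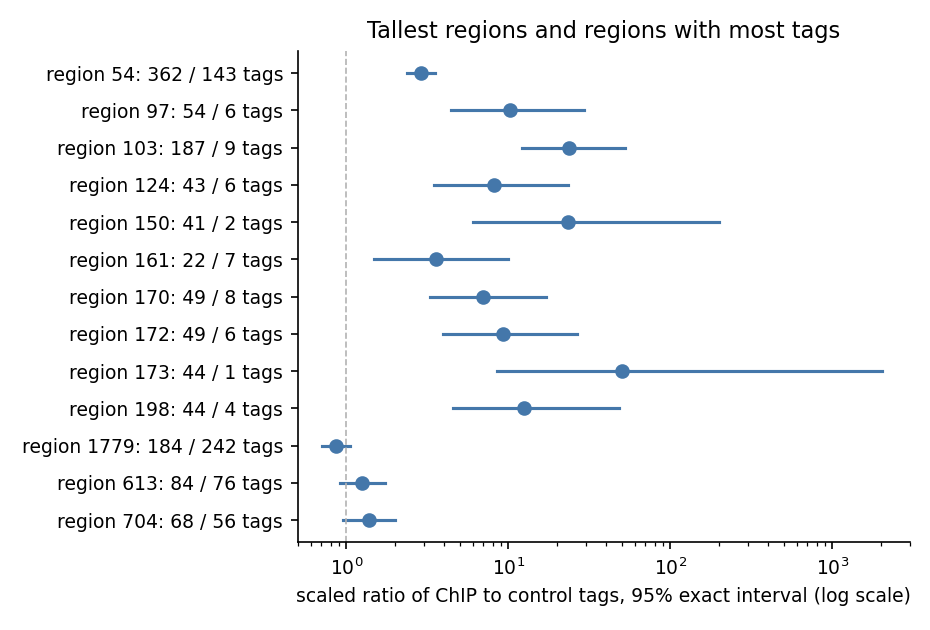
Scaled ratio of ChIP to control tags (log scale) for the 10 tallest regions and the 3 further regions among the 5 with most ChIP tags, with points for the ratio and lines for the exact 95% interval. Each label gives the ChIP and control tags, the dashed line marks a ratio of 1, and regions 1779, 613 and 704 have intervals that include it.

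In 7 of the 220 regions no control tag was counted (3.18%, exact interval 1.29% to 6.45%). Regions without a control tag also occurred among NKT-only regions of shorter shift and among shared regions, so they were not confined to the set. Whether they were more or less frequent in the set is not stated here. The lower quartile of control tags was 2 in the set and over all NKT regions. It was 3 in NKT-only regions of shorter shift and 2 in shared regions with a shift of 60 bp or more. A ratio cannot be given for these 7 regions, and the lower limit of its exact 95% interval is given instead. Region 469 at chr1:74406614-74406858 had 30 ChIP tags and a lower limit of 8.68. Region 374 at chr1:182295714-182295944 had 29 and a lower limit of 8.37, and region 780 at chr16:94592078-94592377 had 27 and a lower limit of 7.76. The others were regions 793, 828, 1098 and 1635, with 24, 22, 25 and 18 ChIP tags and lower limits of 6.83, 6.22, 7.14 and 4.99. The shifts of all 7 lay between 62 and 84 bp and their strand correlations between 0.795 and 0.991.

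Over the whole set the regions were weak, as were most regions of the NKT list. The median density was 11.4 (exact binomial interval of the median 11.1 to 11.6), the lowest 10.05 and the highest 62.7. The median number of ChIP tags was 19 (18 to 20), from 9 to 362, and the median number of control tags was 4 (3 to 4), from 0 to 242. Of the 220 regions, 12 were among the 100 tallest of the NKT list (5.45%, 2.85% to 9.33%). Among the 500 tallest were 73 (33.2%, 27.0% to 39.8%). Over the whole list, which includes the set and has ties in density, the shares were 5.06% (4.14% to 6.11%) and 25.8% (23.8% to 27.7%). Both pairs of intervals overlap. A density under 11, near the lowest listed value, was found in 89 (40.5%, 33.9% to 47.3%). The list had 46.0% (43.8% to 48.3%) there, and these intervals overlap too. The medians of the set were not below those of all 1996 NKT regions, which were a density of 11.09 and 15 ChIP tags. The median density rank was 818 in the set and 983 in the list. In 100 regions 20 or more ChIP tags were counted (45.5%, 38.7% to 52.3%). The share in the list was 23.3% (21.5% to 25.3%), and here the intervals are separate. Over all NKT regions the upper quartile of ChIP tags was 19. A typical region thus rests on few tags, and its own ratio is known poorly.

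The set was compared with 2 other classes of the NKT list, the NKT-only regions with a shorter shift and the 255 shared regions with a shift of 60 bp or more. All come from 1 library and regions are not replicates, so no test was made. Intervals of medians and shares, here and below, come from the values over regions, taken as independent. They do not cover the spread between libraries. Whether such intervals are separate or overlap is given as a description, not as a test of a difference. Width, tag number and shift of a region come from the same tags. The authors' calls rest on ChIP over control, so an excess of ChIP tags is built into every class. The number of ChIP tags per region lay between the classes: the median was 14 (14 to 14) in NKT-only regions of shorter shift and 28 (27 to 30) in shared regions. Width moved with it, with medians of 130 bp (129 to 132), 205 bp (193 to 221) and 276 bp (265 to 290) in NKT-only regions of shorter shift, the 220 regions and shared regions. Per 100 bp of region the ChIP tags were close, with medians of 10.3 (10.2 to 10.3), 9.64 (9.38 to 9.88) and 10.2 (9.82 to 10.6) in the same order. The control tags per 100 bp were not. Their medians were 2.97 (2.80 to 3.09) in NKT-only regions of shorter shift, 1.81 (1.55 to 2.17) in the 220 regions and 0.971 (0.881 to 1.10) in shared regions. The 3 intervals are separate, and the 220 regions sat between the others.

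The tag ratio followed the same order. With control tags counted as at least 3 in each region, its median was 3.86 (3.69 to 3.97) in NKT-only regions of shorter shift, 5.45 (4.73 to 6.06) in the 220 regions and 8.80 (8.33 to 9.46) in shared regions. In 183 of the 220 regions the exact interval of the ratio lay above 1 (83.2%, 77.6% to 87.9%), against 76.0% of all NKT regions. It lay above 2 in 101 (45.9%, 39.2% to 52.7%), against 29.5% of all NKT regions, 13.9% (12.1% to 15.8%) of NKT-only regions of shorter shift and 89.0% (84.5% to 92.6%) of shared regions. In 37 regions the interval reached down to 1 or lower, so that an excess of ChIP over control tags was not detected. Not all of these held few tags. Regions 1779, 613, 704 and 773, with 184, 84, 68 and 30 ChIP tags over 242, 76, 56 and 27 control tags, were among them.

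Since shared regions were taller, the classes were also set side by side at like density. Among regions with a density under 11, the median ratio was 3.69 (3.63 to 3.86) in 782 NKT-only regions of shorter shift, 4.54 (3.79 to 5.11) in 89 of the 220 regions and 6.81 (6.44 to 7.57) in 31 shared regions. At a density of 13 or more it was 4.80 (4.26 to 5.11) in 114, 8.19 (6.53 to 9.46) in 52 and 10.98 (9.77 to 11.7) in 163 regions. The order of the medians was the same at both heights, although under a density of 11 the interval of the 220 regions reached that of the shorter shift. At 13 or more, 41 of 52 regions had a ratio whose interval lay above 2 (78.8%, 65.3% to 88.9%), against 35 of 114 with a shorter shift (30.7%, 22.4% to 40.03%). Like density did not mean like tag number. At 13 or more the median ChIP tags were 27 in the set and 19 with a shorter shift, and the interval narrows with more tags.

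The 220 regions were not alike among themselves. Shifts of 60 to 99 bp were found in 162 regions and shifts of 100 bp or more in 58, of which 19 sat at 200 bp. The median width was 222 bp (209 to 239) in the former and 122 bp (112 to 136) in the latter, and 43 of the 58 were narrower than 150 bp, against 10 of the 162. The ChIP tags had medians of 20 (19 to 21) and 13 (12 to 15), and the control tags per 100 bp of 1.55 (1.30 to 1.76) and 3.19 (2.59 to 4.21). The median tag ratio was 6.44 (5.91 to 6.81) below 100 bp and 3.66 (2.95 to 4.16) from 100 bp on. The latter interval includes the median of NKT-only regions with a short shift, 3.86.

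**Figure D2:**
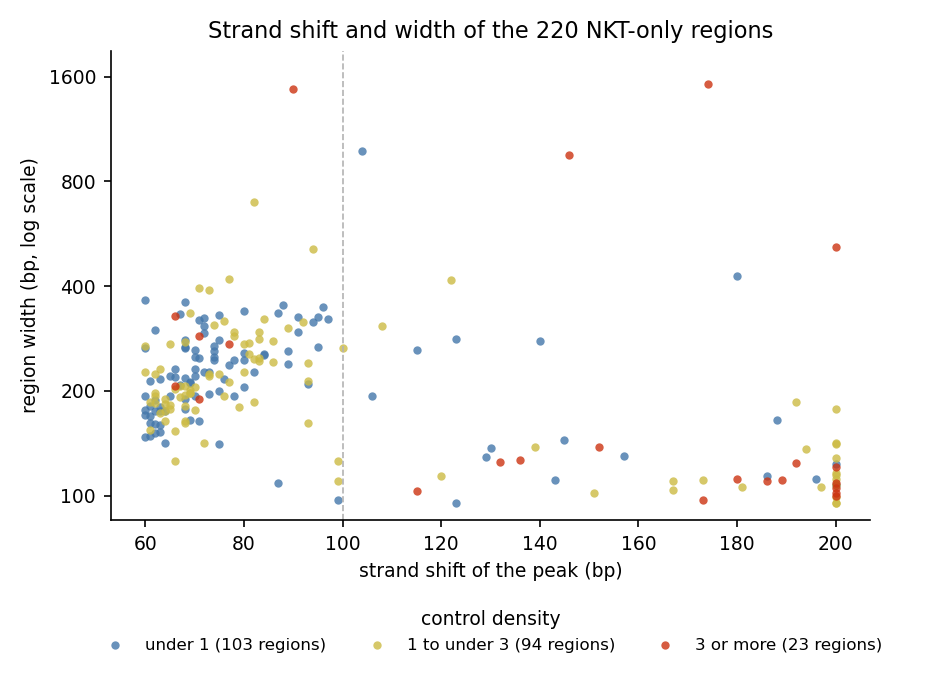
Strand shift in bp against region width in bp (log scale) for the 220 regions, 1 point each, coloured by control density at the summit. Below 100 bp (dashed line) most regions are 150 to 400 bp wide, while from 100 bp on 43 of 58 are narrower than 150 bp and 17 of 58 have a control density of 3 or more.

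The strand correlation was lower with a long shift. Its median was 0.830 (0.770 to 0.851) in regions with a shift of 60 to 99 bp and 0.515 (0.244 to 0.648) in those of 100 bp or more. It was below 0 in 2 of 162 and 10 of 58 regions. For comparison, it had a median of 0.914 (0.906 to 0.920) in NKT-only regions of shorter shift and 0.826 (0.791 to 0.853) in shared regions with a shift of 60 bp or more. This value was computed from the same tags as the shift, so it is not independent of the choice of the regions.

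In smaller steps, 118 regions had a shift of 60 to 79 bp, 44 of 80 to 99 bp, 39 of 100 to under 200 bp and 19 of 200 bp. The median tag ratios were 6.38 (5.45 to 6.81), 6.81 (5.39 to 7.57), 3.60 (2.50 to 4.16) and 3.79 (2.50 to 4.92). The first 2 intervals overlap, as do the last 2, and neither of the first 2 reaches the last 2. The interval of a region's ratio lay above 2 in 64 of 118 and 28 of 44 regions, then in 9 of 39 and in none of the 19 (0%, exact interval 0% to 17.6%). These values depend on the number of tags, with median ChIP tags of 20, 22.5, 15 and 12. Region 899, with 12 ChIP tags over 2 control tags, had a lower bound of 1.52 and, with the floor, a ratio of 4.54. So few tags leave a bound above 2 hard to reach, and the steps cannot separate shift from tag number.

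**Figure D3:**
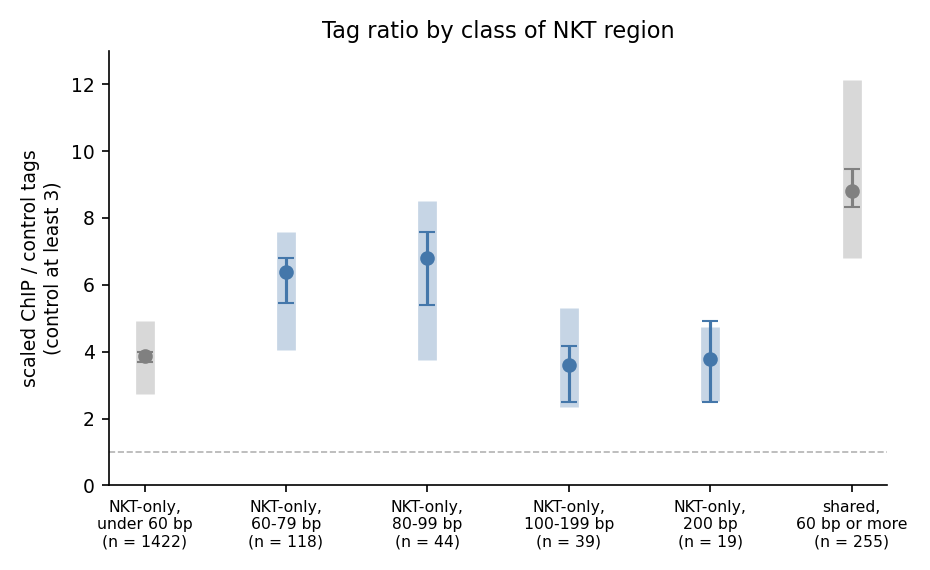
Scaled ratio of ChIP to control tags per region, with control tags counted as at least 3, for the 220 regions by strand shift (blue) and for 2 other classes of NKT regions (grey). Points are medians, thin bars their exact 95% intervals and broad bars the quartiles, and the medians of 6.38 and 6.81 below 100 bp lie between the 3.86 and 8.80 of the grey classes.

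The 9 regions with a shift of 100 bp or more whose ratio interval lay above 2 were regions 103, 302, 323, 980, 1314, 1430, 1785, 1896 and 2015. They were singled out after their values were seen. Besides region 103, the one with most ChIP tags was region 323 at chr10:76206957-76207384, with 44 ChIP tags, 4 control tags and a ratio of 12.5 (4.55 to 47.9). Its peak had a shift of 180 bp, but the shift of the whole region was -39 bp. Region 1314 at chr2:28039466-28039883 had 31 ChIP tags over 6 control tags, and its 2 shifts were 122 and 119 bp. In the set as a whole the shift of the region lay within 5 bp of that of the peak in 200 of 220 cases (90.9%, 86.3% to 94.4%), and it was negative in 11.

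The 5 longest shifts, all of 200 bp and ranked by height, belonged to regions 704, 853, 878, 899 and 1053. Whether 200 bp is a measured shift or a limit of the peak caller was not tested. The whole-region shift was also 200 bp in regions 103 and 613, and -200 bp in region 658. The 19 peaks at 200 bp had a median strand correlation of 0.361. Apart from region 704, the 5 regions were 102 to 121 bp wide and held 11 to 13 ChIP tags. Region 853 at chr15:103001165-103001285 had 13 ChIP tags and 4 control tags, a ratio of 3.69 (1.14 to 15.5). Region 899 at chr12:19269665-19269776 had 12 and 2, a ratio of 6.81 (1.52 to 62.7). The ratio intervals of region 878 at chr8:65256255-65256356 and region 1053 at chr7:10950708-10950812 started at 0.800 and 0.632 and included 1.

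Control signal at the summit was common. A control density of 1 or more was found in 117 regions of the set (53.2%, 46.4% to 59.9%), close to the 54.4% (51.8% to 57.0%) of NKT-only regions with a shorter shift and above the 31.0% (25.4% to 37.0%) of shared regions. A control density of 3 or more was found in 23 (10.5%, 6.74% to 15.3%), against 7.88% (6.53% to 9.40%) and 3.92% (1.90% to 7.09%). It was uneven within the set, with 6 of 162 regions at shifts of 60 to 99 bp (3.70%, 1.37% to 7.89%) and 17 of 58 at 100 bp or more (29.3%, 18.1% to 42.7%). At a shift of 200 bp, 17 of 19 regions reached a control density of 1.

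The highest control density belonged to the tallest region of the set, region 54 at chr11:3003335-3004809. Its density was 62.7, the control there reached 16.5, and its 362 ChIP tags stood 2.87-fold (2.36 to 3.51) above 143 control tags in 1475 bp. The nearest injected-thymocyte region was 25.9 kb away and had a control density of 24.5 itself, under a density of 75.1. The next control densities were 5.00 in region 878, 4.53 in region 161, 4.49 in region 280 at chr7:135542252-135542458 and 4.43 in region 967 at chr17:54351053-54351155. These 4 regions held 11 to 29 ChIP tags. Region 280, with 29 ChIP tags over 9 control tags, had a ratio of 3.66 (1.69 to 8.79), while the interval of region 967 started at 0.632.

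More than 20 control tags were counted in 6 regions (2.73%, 1.01% to 5.84%), against 0.492% (0.198% to 1.01%) of NKT-only regions with a shorter shift. Such counts were not particular to the set. Shared regions held up to 975 control tags at a shift of 60 bp or more and up to 171 at a shorter one. Over the NKT list 17 regions had more than 50 control tags, 4 of them in the set. The 6 regions of the set were 54, 613, 658, 704, 773 and 1779. All but region 773 were among the 5 widest or the 5 with most ChIP tags. Region 1779 at chrX:166429995-166431521 was the widest of all, at 1527 bp, where 184 ChIP tags and 242 control tags gave a ratio of 0.863 (0.709 to 1.05). Region 613 at chr1:90182979-90183934 held 84 ChIP and 76 control tags, a ratio of 1.26 (0.909 to 1.73). Region 658 at chr12:20238709-20239408 held 60 and 43, a ratio of 1.58 (1.05 to 2.40). Of these 6 regions, only 54 and 658 had a ratio whose interval lay above 1. Region 103 is the only one of the 5 widest with 20 or fewer control tags.

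Apart from region 54, the regions with more than 20 control tags all lay within 10 kb of an injected-thymocyte region. The 5 regions of the set nearest to one lay 0.385 to 0.913 kb from its edge, and 3 of them were regions 704, 613 and 1779 with 56, 76 and 242 control tags. Their neighbours in the injected-thymocyte list had control densities of 3.39, 4.16 and 5.35. Region 302 at chr13:120277289-120277453 shared its neighbour with region 704, and held 26 ChIP tags over 1 control tag. Region 829 at chr14:78835815-78836053 was the other one, with 21 ChIP tags, 2 control tags and a ratio of 11.9 (2.91 to 105), 0.391 kb from an injected-thymocyte region of density 16.4. The part of repeated or unevenly mapped sequence in these values was not tested.

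Most regions lay more than 100 kb from the nearest injected-thymocyte region. The median edge-to-edge distance was 150 kb (111 to 184), and the range ran from 0.385 to 2515 kb. In 19 of the 220 regions the nearest injected-thymocyte region was within 10 kb (8.64%, 5.28% to 13.2%), in 88 within 100 kb (exact interval 33.5% to 46.8%), and in 11 beyond 1000 kb. NKT-only regions with a shorter shift had a longer median distance of 218 kb (196 to 239), and 4.71% (3.67% to 5.95%) and 29.7% (27.3% to 32.1%) of them lay within 10 and 100 kb. The 2 intervals of the median do not overlap.

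That difference was not the same at each height. Within 100 kb of an injected-thymocyte region lay 37.1% (27.1% to 48.0%) of the set at a density under 11 and 28.5% (25.4% to 31.8%) of NKT-only regions with a shorter shift. At a density of 11 to under 13 the shares were 48.1% (36.7% to 59.6%) and 29.3% (25.4% to 33.4%). At 13 or more they were 32.7% (20.3% to 47.1%) and 39.5% (30.4% to 49.1%), and the order turned. Only the middle pair has separate intervals. By shift, 43.2% (35.5% to 51.2%) of the 162 regions below 100 bp and 31.0% (19.5% to 44.5%) of the 58 from 100 bp on lay within 100 kb.

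**Figure D4:**
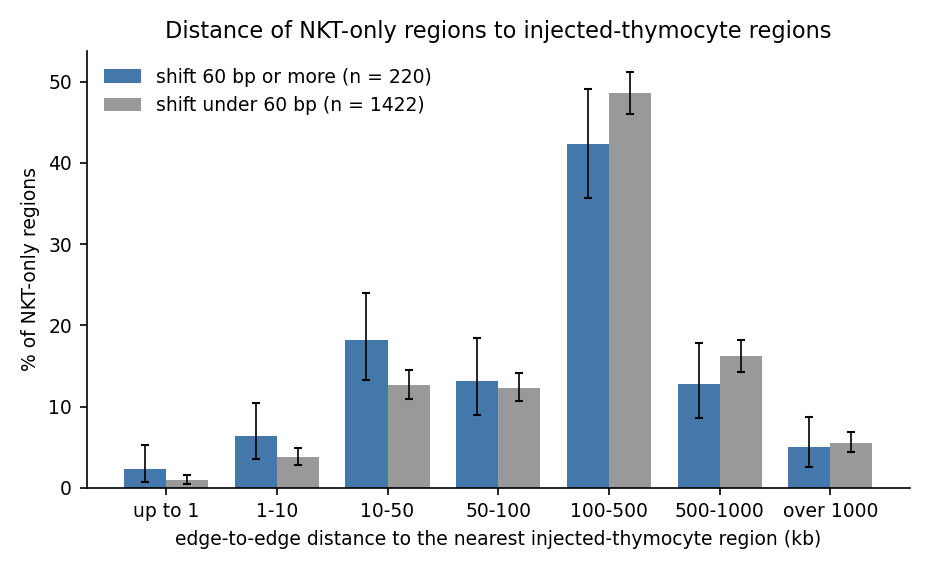
Share of NKT-only regions in % by edge-to-edge distance to the nearest injected-thymocyte region in kb, for the 220 regions with a strand shift of 60 bp or more (blue) and those with a shorter one (grey). Error bars are exact 95% binomial intervals, and 18.2% of blue and 12.7% of grey regions lie between 10 and 50 kb.

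The neighbours themselves were mostly weak peaks, but this did not set them apart from the injected-thymocyte list. In 59 of the 220 cases the neighbour was in the top quartile of density of that list. The same held in 321 of the 1422 cases with a shorter shift. Both are near the share that a quartile holds. The nearest injected-thymocyte region had a median density of 11.3 (10.9 to 11.6) for the 220 regions and 11.02 (10.9 to 11.1) for NKT-only regions with a shorter shift. It overlapped an NKT region elsewhere in 18 of 220 cases (8.18%, 4.92% to 12.6%) and in 8.23% (6.85% to 9.78%) of those with a shorter shift. Next after the 5 nearest regions, 3 lay between 2 and 3 kb from their neighbour. Region 735 at chr7:31938703-31938928 lay 2.54 kb from its neighbour and held 22 ChIP tags over 2 control tags. Region 2304 at chr11:98800970-98801145 lay 2.24 kb away with 16 and 2. Region 1455 at chr4:134960023-134960270 lay 2.01 kb away with 25 and 7.

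At the other end, the farthest region was region 2125 at chrX:153732784-153732892, 2515 kb from any injected-thymocyte region, with 12 ChIP tags over 2 control tags and a density of 10.5. Region 1053, with 11 over 7 tags, followed at 2438 kb. Region 656 at chr13:20185266-20185545 lay 1813 kb away, and its 27 ChIP tags over 2 control tags gave a ratio of 15.3 (3.85 to 133). Region 172 lay 1484 kb away and region 1668 at chr13:76480717-76480886 lay 1411 kb away, the latter with 18 ChIP tags over 3. Of these 5, regions 172 and 656 had a ratio whose interval lay above 2, while region 1668 fell just short, with a lower bound of 1.99.

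Few regions of the set lay near one another. Within 100 kb of another of the set, summit to summit, lay 8 of the 220 (3.64%, 1.58% to 7.04%), as 4 pairs. The share depends on the number of regions and no random placement was made, so whether they cluster was not tested. The closest pair, regions 302 and 704 on chromosome 13, had summits 193 bp apart in adjoining regions, and the second of them held 56 control tags. On chromosome 5, regions 2363 and 737 at chr5:125403258-125403524 and chr5:125424591-125424885 were 21.3 kb apart, with 18 and 27 ChIP tags over 5 control tags each. A further region of the set, number 1509 at chr5:125633534-125633829, lay 209 kb beyond them. On chromosome 4, regions 986 and 1365 at chr4:100866913-100867106 and chr4:100923012-100923237 were 56.1 kb apart, with 20 and 19 ChIP tags over 3 and 6. On chromosome 11, regions 1227 and 2107 at chr11:118121670-118121861 and chr11:118198892-118199102 were 77.2 kb apart, with 20 and 17 over 3 and 5.

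Counting every NKT region as a neighbour, 38 of the 220 had another within 100 kb (17.3%, 12.5% to 22.9%), close to the 18.4% (16.4% to 20.5%) of NKT-only regions with a shorter shift. A shared NKT region was within 100 kb in 12 cases (5.45%, 2.85% to 9.33%), against 3.73% (2.80% to 4.85%). The intervals overlap for both measures.

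The set was spread over all 19 autosomes and the X chromosome. Chromosome 3 held the most, 19 regions (8.64%, 5.28% to 13.2%), followed by chromosome 9 with 17 (7.73%, 4.57% to 12.1%), and chromosomes 1 and 5 with 16 each. Chromosome 19 held the fewest, 4. The intervals of the share overlapped those of NKT-only regions with a shorter shift on every chromosome. On chromosome 9 the latter share was 5.20% (4.11% to 6.49%), and on chromosome 11 it was 3.87% (2.93% to 5.00%) against 6.36% (3.52% to 10.4%) of the set.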

How the data were processed

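The 2 Egr2 ChIP-seq peak lists were used, 1 per library. Per the submitters' processing notes, reads were aligned with Bowtie to mm9. The Bowtie version, the peak caller and the control library behind each list are not given in the sources used here. Libraries were made from 100 ng of ChIP DNA with 16 PCR cycles and a fragment size of 150 to 400 bp, per the labels' protocols. The ChIP and control signal values deposited by the authors are tag densities of unstated scaling, their fold ratio is deposited beside them, and regions carry deposited whole numbers of tags. Library depths are unknown here, and duplicates may make intervals too narrow.

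Each region line was joined to its peak line by number. Tag ratios were scaled by 1.14, the median of the deposited enrichment over the plain ratio in the 17 NKT regions with more than 50 control tags. That it reflects depth is an assumption. Shares carry exact (Clopper-Pearson) 95% intervals, medians exact binomial ones and ratios exact intervals of 2 counts, with a floor of 3 control tags per region in medians of ratios. Python 3.11.15, pandas 2.3.3 and SciPy 1.17.1 were used, and the routines were tested on simulated lists. Coordinates and widths are as the lists give them, and their base (0 or 1) is not given.

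The set, its rule and the comparisons were chosen with earlier results of these data known. Regions were named by rank: the 10 tallest, the 5 with most ChIP tags, the widest, highest control, longest shift, nearest and farthest 5, all within 100 kb of each other, and those at the threshold of the shift. Regions named outside these ranks were chosen after their values were seen. Sequence and annotation of mm9 were not used here, so genes, transcription starts, gene lists, motifs and sequences were not analysed, and coordinates were not converted. Alternatives changed the shift, the overlap, the control and height filters and the window.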

Additional observations from a re-analysis of the deposited data

How the results depend on the processing

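Of 50 alternative values, 39 stayed within 1.5 times the count or within the interval of the value reported, and 11 moved. The cause was not tested. A shift of 50 bp or more raised the number of regions from 220 to 475 and lowered the median ChIP tags from 19 to 16. Keeping only control densities under 1 left 103 regions, with a median tag ratio of 6.81 in place of 5.45 and 0% within 100 kb of another. Keeping the upper 50% of density left 126 regions, with 22 ChIP tags and a ratio of 6.38. A shift of 60 to under 100 bp gave a ratio of 6.44. A shift of 70 bp or more left 1.36% of regions within 100 kb of another, in place of 3.64%, and a window of 1000 kb gave 27.7%. Neighbours were sought only among the regions kept, so this share also depends on their number. It was 0% with 103 regions, 1.36% with 147 and 6.95% with 475. The median distance to the nearest injected-thymocyte region stayed between 121 and 174 kb under every alternative run for it. The alternative with matching shifts of peak and region, and that with densities under 11, were chosen after seeing the data, and neither moved a value. The shares near transcription starts and with an EGR motif, with their alternatives, were not run. No paired analysis was possible because each condition had 1 library. A median of 19 ChIP tags limits what a single region can show.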
